A study of Mus musculus with 8 samples.

Results

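The enzymes that build heme were followed in sorted mouse bone marrow progenitors of telomere dysfunctional and control mice. The genes Alas1, Alas2, Alad, Uros, Urod, Cpox, Ppox and Fech were chosen by name as enzymes of the pathway. The platform annotation gives 19 probe sets, groups of short probes that together read 1 transcript, to these 8 genes alone, out of 34945 probe sets with 1 gene symbol. A gene was tested when a probe set of it reached a signal of 50 on at least 2 of the 8 arrays, and it was then read by its probe set of highest mean signal. Among the members, 7 of 8 genes and 11 of 19 probe sets passed, and Alas2 did not. In all, 8886 of 18193 genes were tested.

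Heme is an iron-bearing porphyrin ring. Its synthesis starts in the mitochondrion, where 5-aminolevulinate synthase joins glycine to succinyl-CoA, continues in the cytosol and ends in the mitochondrion, where ferrochelatase inserts the iron. The first step sets the rate and has a pair of isozymes, the housekeeping ALAS1 and the erythroid ALAS2. Erythroid cells put most of their heme into hemoglobin, while granulocyte and monocyte precursors put it into proteins such as myeloperoxidase and the cytochromes.

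The arrays fall into 4 groups of 2. G4/G5 TERTER/ER mice, labelled as telomere dysfunctional, gave common myeloid progenitors (CMP) and granulocyte-macrophage progenitors (GMP), and so did G0 TERTER/+ mice, labelled as normal. TERTER is an allele that encodes telomerase reverse transcriptase fused to the estrogen receptor. It was thus carried by every mouse, on both copies in G4/G5 and on 1 copy in G0. All mice were male and mainly of the background that the labels spell C576BL/6, matched for age within a pair of pools, and no agent or age is named. Each array was made from a pool of cells of 4 mice, 5000 to 20000 cells sorted from bone marrow, and 5 to 10 ng of RNA. The pools of a group are therefore the replicates, and each already averages over 4 mice. Values are linear MAS5 signals, which can be compared between arrays for 1 probe set but not between probe sets. Differences were taken on the log2(signal + 10) scale, which understates the change of low signals, and are given with the standard error from limma. In bulk samples of this kind, fewer cells of a type and less RNA per cell cannot be told apart.

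The labelled cell types were checked against their markers. Of 10 erythroid and megakaryocyte transcription factors, 7 were lower in GMP than in CMP in G4/G5 mice and 7 in G0 mice (limma, adjusted p below 0.05). Over all genes tested, 6.29% were lower in G4/G5 mice and 10.2% in G0 mice. Of 11 granulocyte and monocyte progenitor genes, 3 were higher in GMP than in CMP in G4/G5 mice and 5 in G0 mice. The share of all genes that were higher was 4.18% in G4/G5 mice and 10.6% in G0 mice. The libraries also differed in genes of maturing neutrophils. The summed signal of 11 such genes was 63171 and 245.7 in the 2 pools of G4/G5 CMP and 327 and 315 in G0 CMP. In GMP it was 33176 and 36347 in G4/G5 pools and 1529 and 3490.3 in G0 pools. G4/G5 CMP pool 1 thus stood apart from the other CMP pools, and both G4/G5 GMP pools stood above both G0 GMP pools. The summed signal of 6 eosinophil, basophil and mast cell genes was 6746 and 2379.9 in G4/G5 CMP and 1842 and 1916 in G0 CMP, and both G4/G5 CMP pools lay above the G0 pools. In GMP that sum was 3948 and 4127 in G4/G5 pools and 3992 and 5266 in G0 pools, which overlapped. A list of 13 erythroid genes held globins, membrane proteins and carbonic anhydrases. Its summed signal was 4375 and 2845 in G4/G5 CMP and 4049 and 2947 in G0 CMP. Most of that sum, in every pool, was of the carbonic anhydrases Car1 and Car2. Car2 alone read 2611 and 2209 in G4/G5 CMP and 2800 and 2503 in G0 CMP. For 9 megakaryocyte and platelet genes the summed signal was 3258 and 936 in G4/G5 CMP and 1863 and 1540 in G0 CMP. For both lists pool 1 was the higher in each CMP group, and the genotypes overlapped. In GMP both lists had lower sums in both G4/G5 pools than in both G0 pools. Every result that compares G4/G5 with G0 is read beside these values.

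**Figure D1:**
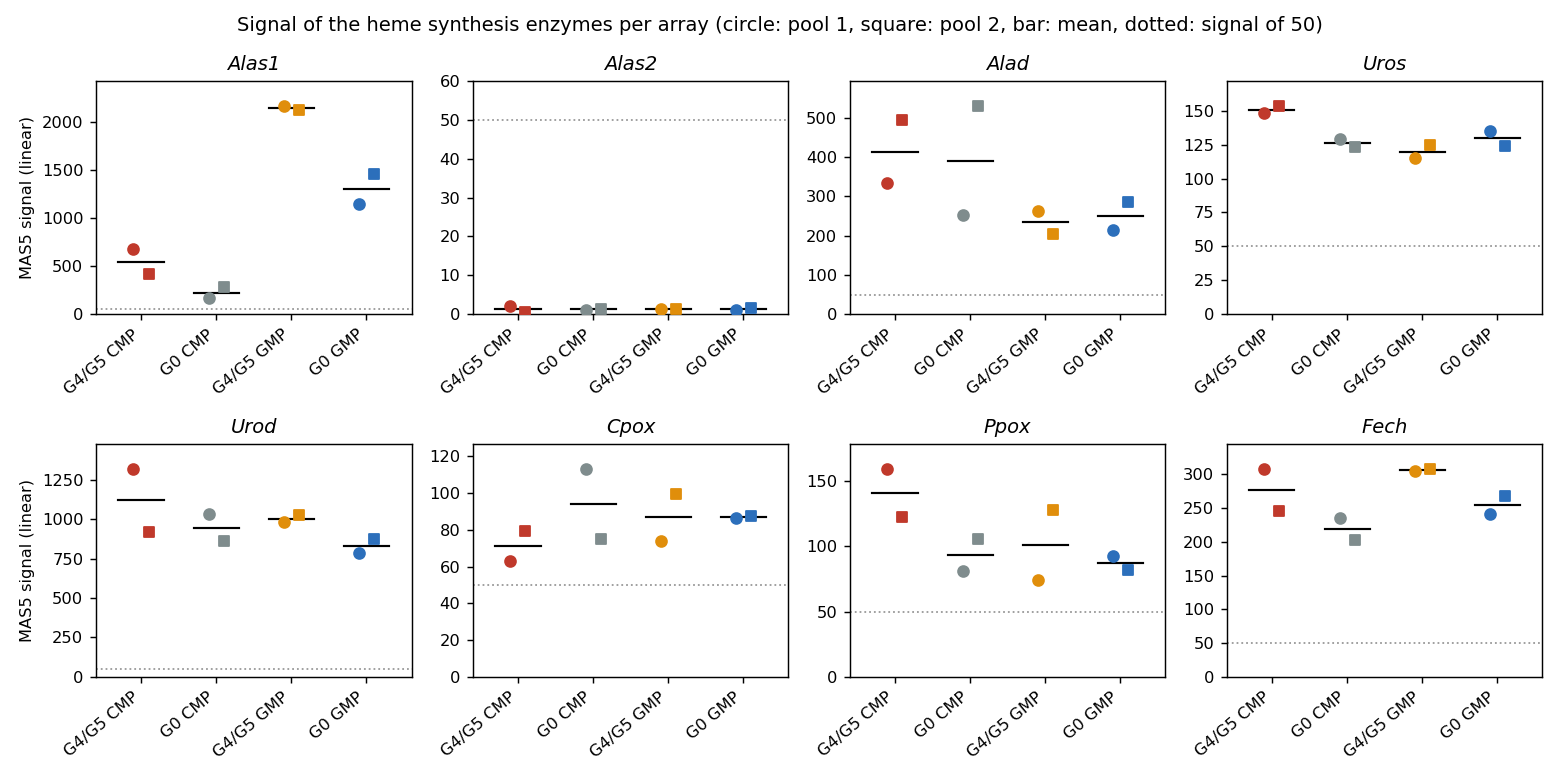
MAS5 signal (linear axis, scaled by the authors to a target of 100) of the 8 heme synthesis enzymes in every array, with G4/G5 left of G0 within CMP and within GMP; circles are pool 1, squares pool 2, black bars the mean of 2 pools and the dotted line the signal of 50 used as the filter. Alas1 lies between 1145 and 2167 in the GMP pools and between 164 and 678 in the CMP pools, while no Alas2 value passes 2.03.

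Alas1, which encodes the housekeeping isozyme of the first and rate-setting step, was the only enzyme called between the cell types. Its signal was 2167 and 2130.2 in G4/G5 GMP pools and 1145 and 1460.1 in G0 GMP pools. In CMP it was 678 and 415 in G4/G5 pools and 164 and 278 in G0 pools. All 4 GMP pools lay above all 4 CMP pools, and within each cell type both G4/G5 pools lay above both G0 pools. Among G4/G5 mice, Alas1 was 3.99-fold higher in GMP than in CMP (95% interval 2.55 to 6.23, log2 difference 2.00 ± 0.28, limma adjusted p = 0.00636). Among G0 mice it was 5.82-fold higher in GMP than in CMP (95% interval 3.72 to 9.09, log2 difference 2.54 ± 0.28, limma adjusted p = 0.00227). Alas1 was the only member called in either of these comparisons, 1 of 7, where 10.5% of all genes tested were called in G4/G5 and 20.8% in G0. A share of this size does not set the enzymes as a group apart from the other genes. The G0 call held under all 20 alternatives. The G4/G5 call was lost without G4/G5 GMP pool 1 (limma adjusted p = 0.0755) or without G4/G5 GMP pool 2 (limma adjusted p = 0.0614).

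The stretch of the Alas1 promoter that follows is shown because Alas1 is the enzyme whose signal moved most, and the Alas2 stretch because it carries a motif of the erythroid GATA factors. Both are from RefSeq on GRCm38.p6, written 5′ to 3′ on the gene's strand, and capitals mark the motif. The Alas1 stretch is chr9:106247906-106247935 on the minus strand, its motif begins 195 bases before the downstream of 2 annotated starts, and it is a core of the motif of nuclear respiratory factor 1, a regulator of mitochondrial genes, found on both strands with the matches overlapping. The Alas2 stretch is chrX:150547319-150547348 on the plus strand, and its motif begins 86 bases before the annotated start.
Alas1: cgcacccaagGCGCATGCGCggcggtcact
Alas2: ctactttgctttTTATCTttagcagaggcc

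Promoter windows of 250 bases before to 50 bases after a start were available for 7 of the 8 members, in 10 windows. Motifs were searched on both strands. GCGCATG, whose reverse complement is CATGCGC, was present for Alas1 alone among the members, in both of its overlapping windows. It was present in 3.91% of 32851 windows of all genes and for 4.41% of genes. AGATAA, whose reverse complement is TTATCT, was present for Alas2 and Cpox, in 11.18% of all windows and for 12.70% of genes. TGATAA, read as TTATCA on the other strand, was present for Cpox and Uros, in 9.05% of all windows and for 10.45% of genes. CCNCNCCC, a motif of the Kruppel-like factors, was present for all 7 members with a window, in 9 of their 10 windows. It was present in 49.47% of all windows and for 51.87% of genes. The length of the first motif was set after the Alas1 window had been read. A match describes the letters of the window and was not tested as a binding site.

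Alas2, which encodes the erythroid isozyme of the same step, was not measured above the filter in any pool. Its single probe set read 2.03 and 0.524 in G4/G5 CMP and 1.18 and 1.37 in G0 CMP. It read 1.32 and 1.24 in G4/G5 GMP and 1.18 and 1.67 in G0 GMP. All 8 values were far below 50 and were not tested, and no difference can be read from them. Other erythroid genes passed the filter. Gata1, the erythroid transcription factor, had signals of 420 and 206 in G4/G5 CMP pools and 277 and 207 in G0 CMP pools. Car1, a carbonic anhydrase of early erythroid cells, had 1309.8 and 449.6 in G4/G5 CMP pools and 996 and 262 in G0 CMP pools. Of 19 genes listed for erythroid globins, membrane proteins and carbonic anhydrases, 13 had a probe set with that symbol alone and 4 passed the filter. Probe sets with several symbols were not read. The highest signal was 2.74 for the globin Hba-a1, 27.3 for Hba-a2 and 25.9 for Hbb-b2. No pool here is of maturing red cells, so how the Alas2 probe set reads where Alas2 RNA is abundant cannot be seen in these arrays.

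**Figure D2:**
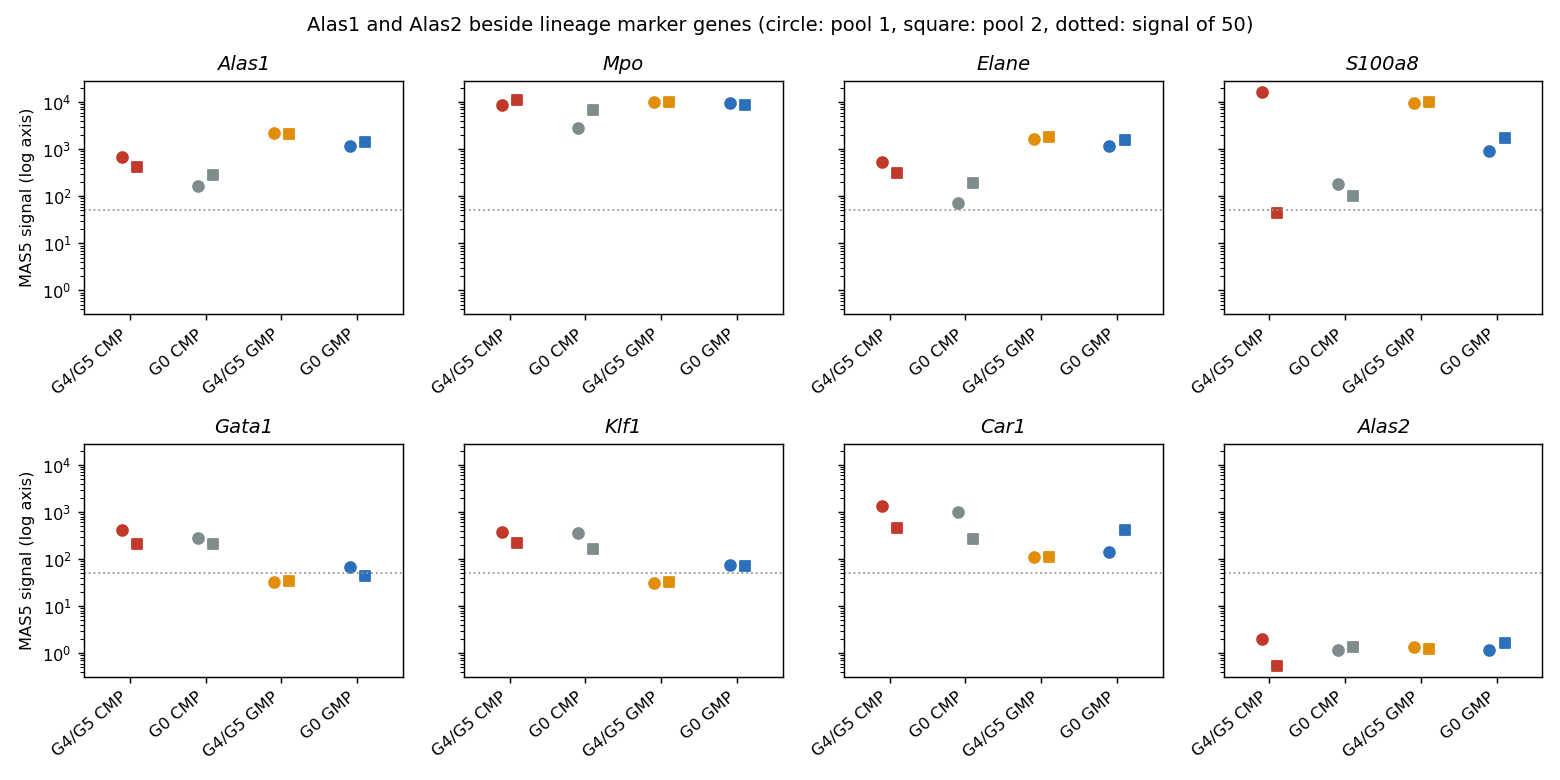
MAS5 signal (log axis) of Alas1 and Alas2 beside genes of granulocyte and monocyte progenitors (Mpo, Elane), of maturing neutrophils (S100a8) and of the erythroid lineage (Gata1, Klf1, Car1), for each pool; circles are pool 1, squares pool 2, G4/G5 stands left of G0, and the dotted line marks a signal of 50. Gata1 lies between 206 and 420 in CMP pools and between 32.8 and 66.9 in GMP pools, and S100a8 in G4/G5 CMP is 16783 in pool 1 and 44.3 in pool 2.

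Some erythroid transcription factors and some granulocyte genes also differed between the cell types. Gata1 was lower in GMP than in CMP by a log2 difference of -2.82 ± 0.33 in G4/G5 mice (limma adjusted p = 0.00288) and -1.95 ± 0.33 in G0 mice (limma adjusted p = 0.00820). Klf1, a transcription factor that drives globin genes, gave -2.84 ± 0.36 in G4/G5 mice (limma adjusted p = 0.00407) and -1.59 ± 0.36 in G0 mice (limma adjusted p = 0.0185). Elane, which encodes neutrophil elastase and was named after its values were seen, was higher in GMP by 2.05 ± 0.40 in G4/G5 mice (limma adjusted p = 0.0196) and 3.42 ± 0.40 in G0 mice (limma adjusted p = 0.00277). Not all granulocyte and monocyte progenitor genes were higher in GMP. In G4/G5 mice 9 of 11 were, with a median of 0.25, while Irf8 gave -0.40 ± 0.45 and Spi1 -0.08 ± 0.34. In G0 mice all 11 were higher in GMP, with a median of 1.16. Mpo, which encodes the heme protein myeloperoxidase, did not pass in either genotype. Its log2 difference between GMP and CMP was 0.01 ± 0.33 in G4/G5 mice (limma adjusted p = 0.987) and 1.04 ± 0.33 in G0 mice (limma adjusted p = 0.0561). The part of the marker genes in the Alas1 difference was not tested.

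Alad encodes the cytosolic enzyme of the next step, which joins aminolevulinate molecules into porphobilinogen. Its signal was 263 and 204 in G4/G5 GMP pools and 334 and 494 in G4/G5 CMP pools. In G0 mice it was 216 and 285 in GMP pools and 252 and 530.1 in CMP pools. The G4/G5 GMP pools lay below both G4/G5 CMP pools, whereas the G0 GMP and CMP pools overlapped. The log2 difference between GMP and CMP was -0.78 ± 0.34 in G4/G5 mice (limma adjusted p = 0.166) and -0.54 ± 0.34 in G0 mice (limma adjusted p = 0.276), and neither passed. The G0 CMP pools differed from each other by 1.04 on the log2 scale for Alad, against a median of 0.25 over all genes tested. Without G0 CMP pool 1 the G0 difference was -1.07 (limma adjusted p = 0.0410), and Alad was then called lower in GMP. Between genotypes the Alad pools overlapped in both cell types, with log2 differences of 0.15 ± 0.34 in CMP and -0.09 ± 0.34 in GMP.

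Uros encodes uroporphyrinogen III synthase, which closes the porphyrin ring. It varied little, with 148 and 153 in G4/G5 CMP pools, 129 and 123 in G0 CMP pools, 115 and 124 in G4/G5 GMP pools and 135 and 124 in G0 GMP pools. In CMP both G4/G5 pools lay above both G0 pools, by a log2 difference of 0.24 ± 0.15 (limma adjusted p = 0.511). In GMP the difference was -0.10 ± 0.15 (limma adjusted p = 0.863), and the pools overlapped. Among G4/G5 mice both GMP pools lay below both CMP pools, by -0.31 ± 0.15 (limma adjusted p = 0.207).

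Urod encodes uroporphyrinogen decarboxylase, the last cytosolic enzyme. Its brightest probe set, of a class that can also match related transcripts, had signals of 1320.1 and 919 in G4/G5 CMP pools and 1031 and 861 in G0 CMP pools. In GMP it had 979 and 1026 in G4/G5 pools and 786 and 878 in G0 pools. The genotypes overlapped in CMP, and in GMP both G4/G5 pools lay above both G0 pools. The log2 difference between G4/G5 and G0 was 0.22 ± 0.18 in CMP (limma adjusted p = 0.627) and 0.27 ± 0.18 in GMP (limma adjusted p = 0.704). A second probe set that reads Urod gave 0.39 ± 0.24 in CMP and 0.02 ± 0.24 in GMP. The separation in GMP was thus seen with 1 of the 2 Urod probe sets past the filter.

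Cpox encodes coproporphyrinogen oxidase, which acts in the space between the mitochondrial membranes. Its signal was 63.3 and 79.6 in G4/G5 CMP pools and 113 and 75.1 in G0 CMP pools. In GMP it was 73.9 and 99.7 in G4/G5 pools and 86.6 and 87.8 in G0 pools. These signals were close to the filter, and the groups overlapped in both cell types. Cpox was the only tested member with a negative log2 difference between G4/G5 and G0 in both cell types, -0.34 ± 0.24 in CMP and -0.02 ± 0.24 in GMP. Neither passed, and the GMP value lay between -0.21 and 0.18 when single pools were left out.

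Ppox encodes protoporphyrinogen oxidase, the enzyme of the step before iron insertion. Its signal was 159 and 122 in G4/G5 CMP pools and 81.3 and 106 in G0 CMP pools. In GMP it was 74.3 and 128 in G4/G5 pools and 92.9 and 81.6 in G0 pools. Both G4/G5 CMP pools lay above both G0 CMP pools, and the GMP pools overlapped. The log2 difference between G4/G5 and G0 was 0.54 ± 0.26 in CMP (limma adjusted p = 0.415) and 0.15 ± 0.26 in GMP (limma adjusted p = 0.894).

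Fech encodes ferrochelatase, which inserts iron into the ring. Its brightest probe set is of a class that can also match related transcripts. That probe set had signals of 308 and 246 in G4/G5 CMP pools and 235 and 203 in G0 CMP pools. In GMP it had 306 and 307 in G4/G5 pools and 241 and 267 in G0 pools. In both cell types the G4/G5 pools lay above the G0 pools. The log2 difference was 0.32 ± 0.16 in CMP (limma adjusted p = 0.422), 0.26 ± 0.16 in GMP (limma adjusted p = 0.679) and 0.29 ± 0.11 as the mean of both (limma adjusted p = 0.244). None of these passed, although the interval of the mean, 0.03 to 0.55, does not hold 0 when this 1 gene is read without adjustment. Another Fech probe set had 244 and 158 in G4/G5 CMP pools, 128 and 148 in G0 CMP pools, 223 and 201 in G4/G5 GMP pools and 126 and 139 in G0 GMP pools. Its groups did not overlap in either cell type, and its mean log2 difference was 0.56 ± 0.15 (limma adjusted p = 0.168 over 14743 probe sets). For GMP against CMP in G0 mice the brightest probe set gave 0.21 ± 0.16 and this other one -0.05 ± 0.21, and neither passed. The remaining Fech probe set past the filter had 166 and 99.8 in G4/G5 CMP pools, 119.7 and 96.4 in G0 CMP pools, 176 and 199.7 in G4/G5 GMP pools and 135 and 148 in G0 GMP pools. Its groups overlapped in CMP and not in GMP, and its mean log2 difference was 0.31 ± 0.17 (limma adjusted p = 0.363).

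**Figure D3:**
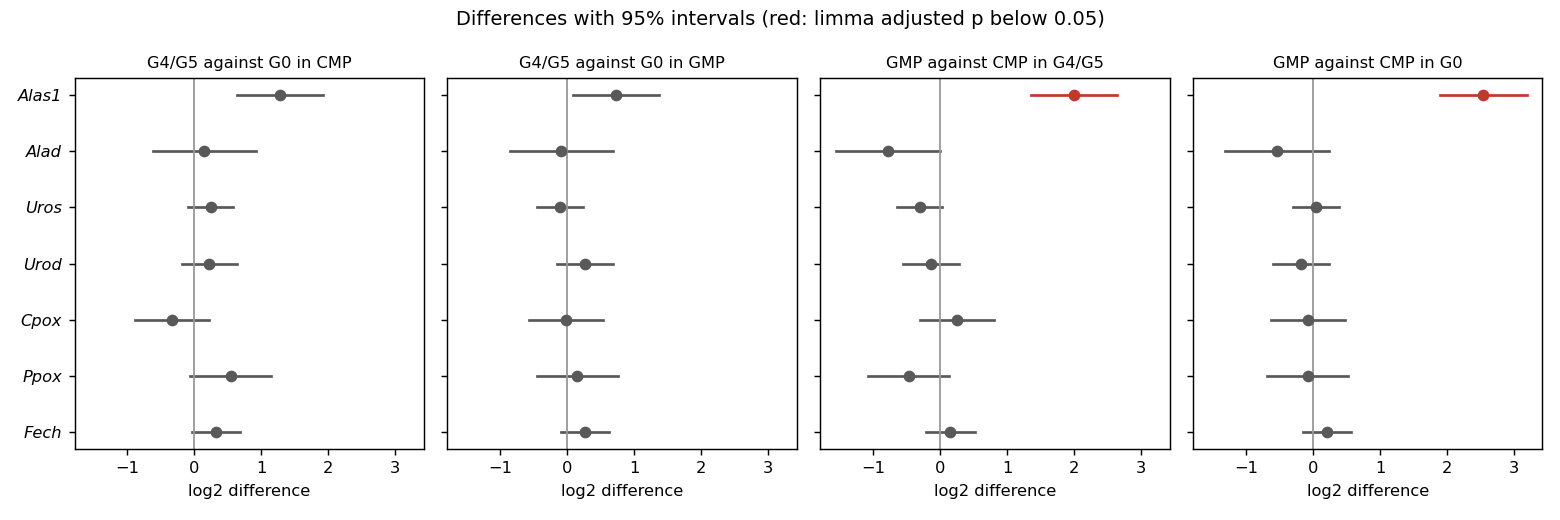
Log2 difference of the 7 tested enzymes in 4 comparisons, G4/G5 against G0 within CMP and within GMP and GMP against CMP within G4/G5 and within G0; points are limma estimates, lines 95% intervals, and red marks an adjusted p below 0.05. Alas1 between GMP and CMP, at 2.00 in G4/G5 and 2.54 in G0, is the only enzyme in red.

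With the genotypes compared over all enzymes, no member was called in CMP, in GMP or in the mean of both (limma, adjusted p below 0.05). Over all genes tested, 0.0113% were called in CMP, 0.00% in GMP and 0.0338% in the mean, so these comparisons called almost no gene. At an unadjusted p below 0.05, 1 of 7 members stood in CMP, against 1194 genes or 13.4% of all, and 1 of 7 in GMP, against 699 genes or 7.87%. That member was Alas1 in both. In the mean, 2 of 7 stood there, Alas1 and Fech, against 1582 genes or 17.8%. Alas1 was 2.42-fold higher in G4/G5 than in G0 CMP by the fit (95% interval 1.55 to 3.77, log2 difference 1.27 ± 0.28, limma adjusted p = 0.234). In GMP it was 1.66-fold higher in G4/G5 (95% interval 1.06 to 2.59, log2 difference 0.73 ± 0.28, limma adjusted p = 0.613). As the mean of both cell types the log2 difference was 1.00 ± 0.20 (limma adjusted p = 0.154), which ranked Alas1 number 48 of 8886 genes by p.

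Separation of the pools was more common among the members than calls. In CMP, 4 of 7 members (Alas1, Uros, Ppox and Fech) had both G4/G5 pools above both G0 pools, where 21.7% of all genes tested did. In GMP, 3 of 7 (Alas1, Urod and Fech) did, where 28.8% of all genes did. Alas1 and Fech separated in this way in both cell types, 2 of 7 members, against 10.3% of all genes. No member had both G4/G5 pools below both G0 pools, which 14.9% of all genes showed in CMP and 26.5% in GMP. The median log2 difference of the 7 members was 0.24 in CMP and 0.15 in GMP, beside 0.04 and 0.01 over all genes tested. With 7 members these counts describe the enzymes and were not tested as a set.

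The Alas1 difference between genotypes is given here beside markers of other cells. In CMP, all 11 maturing neutrophil genes had a positive log2 difference between G4/G5 and G0, with a median of 3.63 and none called. Their summed signal was high in pool 1 alone, as given above. In G4/G5 CMP pool 2 that sum, 245.7, was below those of both G0 CMP pools, and the Alas1 signal was 415 in that pool and 164 and 278 in the G0 pools. Without pool 1 of G4/G5 CMP the Alas1 difference in CMP was 0.93. Without pool 2 of that group it was 1.62, and without pool 2 of G0 CMP it was 1.64. Each of these fits leaves 1 pool in a group. Granulocyte and monocyte progenitor genes moved in the same direction in CMP. Their summed signal was 26237 and 24043 in G4/G5 pools and 7263 and 15320 in G0 pools. All 11 had a positive difference, with a median of 0.98, and the G0 pool of lowest sum was also that of lowest Alas1. In GMP the sums within a genotype were close, at 37652 and 38060 in G4/G5 pools and 33243 and 32911 in G0 pools. There the pool of slightly higher sum had the lower Alas1 signal, but sums this close do not order the pools. For the other members that separated in CMP, the difference without G4/G5 CMP pool 1 was 0.26 for Uros, 0.36 for Ppox and 0.16 for Fech, none of them called. The part of these genes in the differences of CMP was not tested.

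In GMP the summed signal of the neutrophil genes separated the genotypes, as Alas1 did. Of the 11 genes, Cxcr2 overlapped, with 44.8 and 82.6 in G4/G5 pools and 49.5 and 40.1 in G0 pools. All 11 had a positive difference, with a median of 4.04 and none called, and the summed signals were 33176 and 36347 in G4/G5 pools and 1529 and 3490.3 in G0 pools. For granulocyte and monocyte progenitor genes the sums were 37652 and 38060 in G4/G5 GMP pools and 33243 and 32911 in G0 GMP pools. Of these genes, 9 of 11 had a positive difference in GMP, with a median of 0.19 and none called. The part of either list in the Alas1, Urod and Fech values of GMP was not tested. Fitted on the 4 GMP arrays alone, with their own and smaller spread, the Alas1 difference of 0.73 had a standard error of 0.12 and was called (limma adjusted p = 0.0116). The share of all genes called in that fit was not recorded, so the call has no background beside it. Fitted on the 4 CMP arrays alone, the difference of 1.27 had a limma adjusted p of 0.839.

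The genotype difference of Alas1 was not shown to depend on the cell type. The difference in GMP minus that in CMP was -0.54 ± 0.40 on the log2 scale (95% interval -1.45 to 0.37, limma adjusted p = 0.994), and no gene of those tested was called for this term (0.00%), with 353 genes or 3.97% at an unadjusted p below 0.05 and no member among them. Of the members, 5 of 7 had a negative value, as did 4877 of the 8886 genes, with a median of -0.24 beside -0.03 over all genes. The second Alas1 probe set, which can match related transcripts, read 137 and 86.1 in G4/G5 CMP pools and 74.6 and 87.0 in G0 CMP pools. In GMP it read 443 and 699.8 in G4/G5 pools and 274 and 379.8 in G0 pools. By that probe set the genotypes overlapped in CMP, with a log2 difference of 0.39 ± 0.28 (limma adjusted p = 0.561), and separated in GMP, with 0.77 ± 0.28 (limma adjusted p = 0.646). Between GMP and CMP it gave 2.25 ± 0.28 in G4/G5 mice (limma adjusted p = 0.00402) and 1.88 ± 0.28 in G0 mice (limma adjusted p = 0.00551). Both Alas1 probe sets thus passed between cell types and neither passed between genotypes.

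**Figure D4:**
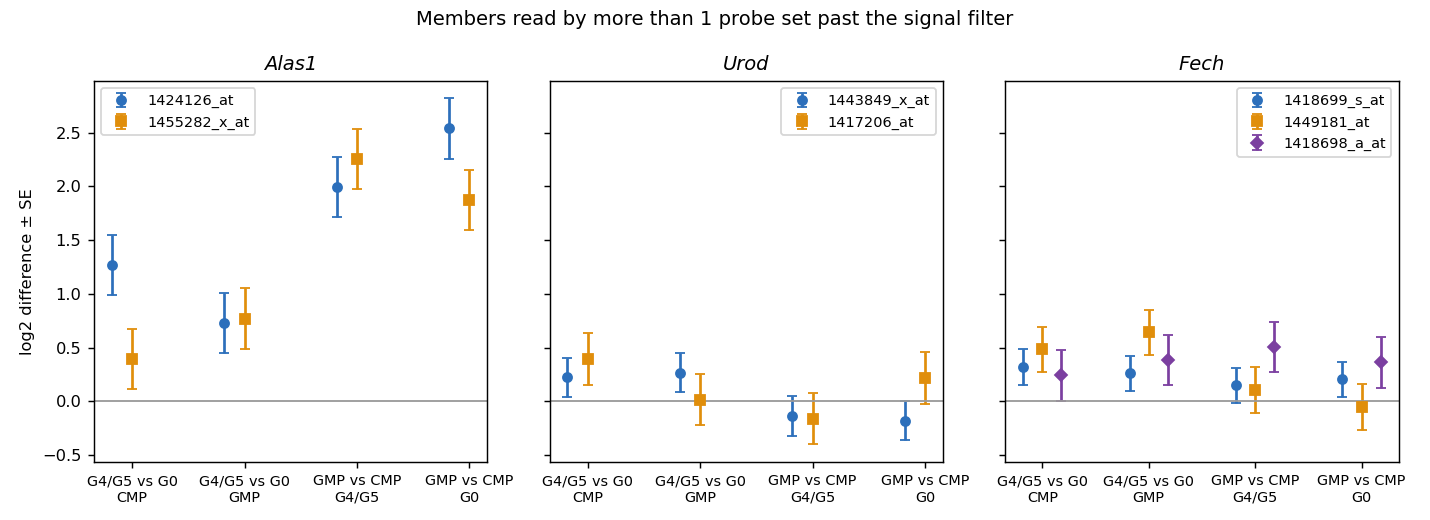
Log2 difference (± standard error, limma over 14743 probe sets) for the 3 enzymes with more than 1 probe set past the filter, in 4 comparisons with G4/G5 on top of G0 and GMP on top of CMP; each colour is a probe set, the brightest in blue. The Alas1 probe sets lie at 2.00 and 2.25 for GMP against CMP in G4/G5, and at 1.27 and 0.39 for G4/G5 against G0 in CMP.

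How far the values rest on single pools was described by the spread within groups. The Alas1 pools of G4/G5 CMP differed by 0.69 and those of G0 CMP by 0.73 on the log2 scale, where the median gene differed by 0.27 and 0.25. In GMP the G4/G5 pools differed by 0.02 and the G0 pools by 0.35, where the median gene differed by 0.13 and 0.14. Over the 8 single-array omissions the Alas1 difference between G4/G5 and G0 ran over 0.91 to 1.64 in CMP and 0.55 to 0.90 in GMP. That of Fech ran over 0.16 to 0.48 in CMP and 0.19 to 0.33 in GMP. For both genes the G4/G5 pools lay above the G0 pools in each cell type, so omitting 1 array could not turn the sign. Alad, by contrast, ran over -0.38 to 0.67 in CMP, so its direction there depended on a single pool.

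**Figure D5:**
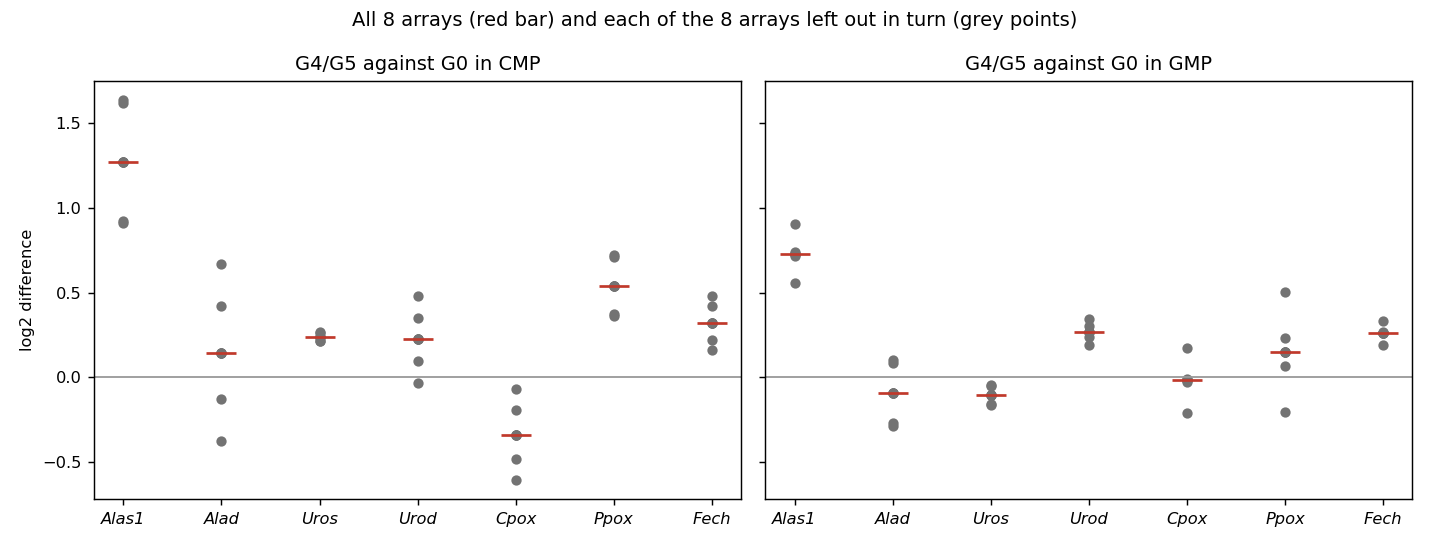
Log2 difference between G4/G5 and G0 of the 7 tested enzymes in CMP (left) and GMP (right), with all 8 arrays (red bar) and with each array left out in turn (grey points). Alas1 lies between 0.91 and 1.64 in CMP and between 0.55 and 0.90 in GMP, and as its groups do not overlap, omitting 1 array could not turn its sign. Alad in CMP, whose groups overlap, lies on both sides of 0.

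The rest of the heme pathway was read from lists of transport, iron, iron-sulfur, breakdown and heme protein genes, chosen by function. No gene of these lists was called between G4/G5 and G0 in either cell type. Between GMP and CMP, Tfrc, the transferrin receptor that takes up iron, rose in GMP by 0.87 ± 0.18 on the log2 scale in G4/G5 mice (limma adjusted p = 0.0243) and 0.91 ± 0.18 in G0 mice (limma adjusted p = 0.0128). Its signal was 1115 and 1263 in G4/G5 GMP pools and 778 and 536 in G4/G5 CMP pools, without overlap. In G0 mice it was 1092 and 1007 in GMP pools and 578 and 527 in CMP pools, also without overlap. Slc25a37, the mitochondrial iron importer mitoferrin, gave 0.05 ± 0.27 in G4/G5 mice and 0.28 ± 0.27 in G0 mice, and neither passed. Slc25a38, a mitochondrial glycine carrier, gave -0.16 ± 0.21 in G4/G5 mice and 0.32 ± 0.21 in G0 mice, and neither passed.

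By list, the calls between GMP and CMP were few. Of 11 iron uptake and storage genes tested, 2 rose and 1 fell in G4/G5 mice, while 1 rose and 1 fell in G0 mice, the falling gene being Tfr2, a second transferrin receptor, both times. Of 8 heme and porphyrin transport genes, 1 rose in G4/G5 mice, Flvcr1, a heme exporter, and none in G0 mice. Of 10 iron-sulfur cluster genes, 1 fell in G4/G5 mice, Hscb, while 1 rose in G0 mice, Glrx5. Of 8 breakdown and sensing genes, Blvrb, a biliverdin reductase, fell in G4/G5 mice and Bach1, a heme-binding repressor, in G0 mice. Hmox1, the inducible heme oxygenase, did not pass the filter, and its highest signal was 18.8. Of 11 heme-containing proteins of phagocytes and mitochondria, 2 rose in G4/G5 mice, Cyc1 and Cycs, and 4 in G0 mice, Cyc1, Cycs, Epx and Sdhd. Cyc1 and Cycs encode cytochromes of the respiratory chain. Apart from Tfrc and Hmox1, the genes of this paragraph were named after their values were seen. These counts are read beside all genes tested, of which 4.18% rose and 6.29% fell in G4/G5 mice and 10.6% rose and 10.2% fell in G0 mice.

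Correlations between the enzymes were of both signs. Over the 8 arrays, which share the 4 groups and so are not independent points, Alas1 and Fech had a Pearson correlation of 0.73, Uros and Ppox of 0.68, and Alas1 and Alad of -0.55. Among all tested genes outside the pathway, those most like Alas1 over the 8 arrays were Cope (r = 0.997), Gstm1 (r = 0.995) and Egln3 (r = 0.994). Those most like Fech were Dstyk (r = 0.973), Mgst3 (r = 0.972) and AB124611 (r = 0.972). For Alad they were Dipk1b (r = 0.987), Adamts10 (r = 0.984) and Tfpt (r = 0.981). For Urod they were Mcur1 (r = 0.984), Vcl (r = 0.983) and Zfand1 (r = 0.980). For Uros, Cpox and Ppox the nearest genes were Tpst1 (r = 0.937), Tomm70a (r = 0.951) and Nfkbil1 (r = 0.932). These are the highest of 8886 genes over few arrays and are given as a description.

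The signal of Gstm1, a glutathione transferase, shows what such a likeness looks like. It was 1581 and 1703 in G4/G5 GMP pools, 823 and 1096 in G0 GMP pools, 522 and 311 in G4/G5 CMP pools and 110.5 and 263 in G0 CMP pools. As for Alas1, every GMP pool lay above every CMP pool and the G4/G5 pools lay above the G0 pools of their cell type.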

How the data were processed

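Total RNA of 8 pools was hybridised to Affymetrix Mouse Genome arrays. The authors normalized the scans with MAS version 5.0 to a target of 100, per the series text, and deposited linear signal intensity, 1 value for each of 45101 probe sets. The number of arrays limits the precision. Symbols came from the platform annotation: 34945 probe sets have 1 symbol, 932 several, 9160 none and 64 are controls. All 8 member names matched RefSeq's.

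Genes at an intensity of 50 or more on at least 2 arrays were fitted with limma 3.58.1 in R 4.3.3 (lmFit, eBayes with trend) on log2(signal + 10), with 1 mean for each of 4 groups and 4 residual degrees of freedom. P-values were adjusted by Benjamini-Hochberg over 8886 genes, with a threshold of 0.05 in each of 6 comparisons. Nothing in the labels says that the pools share no preparation, so p-values measure the spread between these pools. The fit was tested on simulated data. Python 3.11.15 with pandas 2.3.3 and matplotlib 3.10.9 drew the figures and read promoter windows.

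The members and lists were chosen with earlier results of these data known. The genes named are the members, a short list of pathway and lineage genes, any listed gene called between genotypes, and for each member the 3 most correlated genes. Of the members' probe sets, those past the signal filter and that of Alas2 are given. The series text pairs same-numbered pools within a cell type. Deviations from the group means correlated at 0.25 in CMP and 0.14 in GMP. Between groups of different cell type they correlated at -0.23 to 0.22, so values of similar size occurred where no pairing is stated. A pool block was an alternative, as were pseudocounts, filters, scalings, probe set choices, variance models and single-array omissions. Whether CMP and GMP pools of 1 number share mice is not given.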

Additional observations from a re-analysis of the deposited data

How the results depend on the processing

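The 2 pools a group limit what could be called, and Alas2 lies below the signal filter. The fits were repeated under up to 20 alternatives. Where 1 array was left out, the lone pool was assumed to vary like the other groups. The count of enzymes called between G4/G5 and G0 ran over 0 to 1 in CMP and 0 to 1 in the mean of CMP and GMP, with Alas1 gained without G4/G5 CMP pool 2 or without G0 CMP pool 2. Between GMP and CMP it ran over 0 to 1 in G4/G5, where Alas1 was lost without either G4/G5 GMP pool, and over 1 to 2 in G0, where Alad was gained without G0 CMP pool 1. On the arrays of the compared groups alone the count in GMP was 1 (Alas1), by construction with fewer arrays and their own spread. The share of all genes called was not recorded under the alternatives, so these counts have no background beside them. For the mean and for the difference between cell types that setting could not be run, and with a signal of 100 as the filter Cpox has no value. Both fits with the replicate block, the pairing within cell type or shared by CMP and GMP, changed no call: with the block within cell type Alas1 had limma adjusted p = 0.206 in CMP, 0.459 in GMP, 0.0168 for GMP against CMP in G4/G5 and 0.00802 in G0. No called difference turned its sign. Uncalled ones did, and the cause was not tested. By quantile normalization Ppox was 0.018 and Cpox 0.049 for GMP against CMP in G0. By median centring Alad was -0.011 in the mean of the genotype differences. Without probe sets of the classes that can match related transcripts, Urod was 0.22 and Fech -0.052 for GMP against CMP in G0, and the difference between cell types was -0.38 for Urod and 0.16 for Fech. Left-out arrays gave these ranges for uncalled members that turned. Between G4/G5 and G0 in CMP, Urod ran over -0.035 to 0.48 and Alad over -0.38 to 0.67; in GMP, Cpox ran over -0.21 to 0.18, Ppox over -0.20 to 0.50 and Alad over -0.29 to 0.10; in the mean, Alad ran over -0.23 to 0.29. The difference between cell types ran over -0.22 to 0.10 for Fech, -0.76 to 0.28 for Alad and -0.21 to 0.30 for Urod. GMP against CMP in G4/G5 ran over -0.39 to 0.12 for Urod and -0.0087 to 0.31 for Fech, and in G0 over -0.34 to 0.19 for Cpox, -0.25 to 0.088 for Ppox and -0.024 to 0.094 for Uros.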
